A study of Homo sapiens with 6 samples.

Results

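The HOXD cluster was followed with 73 array probes out of 60596 target probes used, in MDA-MB-231 cells, an established human breast cancer line, after 24 h of treatment. The members were all probes named nc-HOXD, by their names non-coding transcripts of the cluster, and all probes named as an exon or intron of a RefSeq transcript that the RefSeq gene table assigns to a HOXD gene. They comprised 45 non-coding (nc) probes, 18 exon probes and 10 intron probes of the 9 genes HOXD13, HOXD12, HOXD11, HOXD10, HOXD9, HOXD8, HOXD4, HOXD3 and HOXD1, and each probe had 1 spot per array. The 6 groups were PBS as the control, LPS (a bacterial endotoxin), IL1b, TNFa, IL6 and TGFb, and their doses are not given in the sources used here. All groups used the same line, and each had 1 array, so nothing below has a replicate check and no test or p-value is given. Per the series' design text, the question was which long non-coding RNAs answer to inflammation.

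HOX genes encode homeodomain transcription factors that give cells their position along the body axis. In the HOXD cluster the genes stand in a fixed order, and those at the HOXD13 end are known for patterning limbs, digits and the genital tract, whereas those at the HOXD1 end act earlier and more anteriorly. The cluster also gives rise to many non-coding transcripts between and across its genes, and Polycomb complexes keep it silent in many adult cell types. HOTAIR, a non-coding RNA of the HOXC cluster, is known for repressing HOXD genes through Polycomb. The probe numbers in the file (2 to 49, with 3 numbers not used here) rise in gene order from HOXD13 to HOXD1, so that they give a place along the cluster. Per RefSeq, the HOXD4 and HOXD3 gene models overlap, and the antisense transcript HAGLR overlaps HOXD1. The labels describe labelled double-stranded cDNA, which marks no strand, but they also name another array format than the files show. Exon and nc probes were therefore not assigned to a sense or an antisense transcript.

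Promoter sequences were read for 8 of the 9 genes from RefSeq (GRCh38.p14). Shown are the 250 bases before the start of 3 genes whose exon probes the results turn on, because their array profiles differed from each other. All 3 lie on chromosome 2, plus strand, at chr2:176107030-176107279 (HOXD11), chr2:176157057-176157306 (HOXD3) and chr2:176188418-176188667 (HOXD1). The array's own probes were not placed on a genome, since no build is named for them. Capitals mark the E-box CACGTG and the CCAAT box (ATTGG on the other strand), which touch in HOXD3.
HOXD11: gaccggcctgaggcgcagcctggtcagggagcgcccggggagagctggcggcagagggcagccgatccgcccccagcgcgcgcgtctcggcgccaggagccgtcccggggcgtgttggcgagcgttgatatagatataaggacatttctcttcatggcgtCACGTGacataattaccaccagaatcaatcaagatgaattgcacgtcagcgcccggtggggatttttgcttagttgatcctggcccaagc
HOXD3: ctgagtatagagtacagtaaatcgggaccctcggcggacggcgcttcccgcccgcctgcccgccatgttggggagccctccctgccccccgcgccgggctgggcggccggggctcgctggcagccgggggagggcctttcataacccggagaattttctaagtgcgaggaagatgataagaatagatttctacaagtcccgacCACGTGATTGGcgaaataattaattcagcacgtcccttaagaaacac
HOXD1: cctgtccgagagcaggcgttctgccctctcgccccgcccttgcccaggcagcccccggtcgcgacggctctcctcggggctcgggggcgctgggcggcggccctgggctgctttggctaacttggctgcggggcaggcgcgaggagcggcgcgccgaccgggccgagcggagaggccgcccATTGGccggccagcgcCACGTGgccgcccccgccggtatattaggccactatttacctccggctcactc
The E-box, a site of basic helix-loop-helix factors, was present in 5 of the 8 HOXD promoters (HOXD13, HOXD11, HOXD10, HOXD3 and HOXD1) and in 6.34% of all 35116 promoters of the same length. CCAAT was present in 6 of 8 and in 32.0% of all, searched on both strands like the other motifs. Sites tied to the stimuli were searched as TGACTCA (AP-1), TTCNNNGAA (STAT), GTCTAGAC (SMAD) and the NF-kB consensus. Each was present in 0 of the 8 windows, and in 4.20%, 6.57%, 0.182% and 5.21% of all promoters. GC content was 61.6% for HOXD11, 59.2% for HOXD3 and 74.8% for HOXD1, beside a median of 58.0% over all promoters. Its part in the matches was not tested. These matches describe letters in a short window only.

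Values are log2 intensities after quantile normalization, which gives every array the same distribution, with a median over all probes of 5.07. A probe was counted as measured on an array where the scanner software called its spot well above background. Detection differed between the arrays, with 33.2% of all probes measured after PBS, 40.7% after LPS, 49.0% after IL1b, 43.5% after TNFa, 68.4% after IL6 and 56.3% after TGFb. Negative control spots were called in 0.5% of cases with PBS, 1.83% to 2.33% after LPS, IL1b and TNFa, 12.8% after IL6 and 11.2% after TGFb, and the part of this in the HOXD values was not tested. The robust SD of log2 differences over all probes was 0.23 to 0.35 among LPS, IL1b and TNFa, 0.40 between IL6 and TGFb, and 0.45 to 0.90 between PBS and a treated array. None of the 17 cell type markers and 18 HOX cofactors or regulators looked for had a named probe, so the cell type was not checked. In bulk RNA, fewer cells with a transcript and less of it per cell cannot be told apart.

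With PBS, 21 of the 73 HOXD probes were measured, or 28.8%, beside 33.2% of all probes. The measured share differed by class. It was 6 of 18 exons, 15 of 45 nc probes and 0 of 10 introns. With IL6 it was 12 of 18 exons, 32 of 45 nc probes and 7 of 10 introns, and with TGFb 11, 25 and 6. Introns were measured in 1 of 10 cases with LPS (HOXD13 intron 1), 3 with IL1b and 1 with TNFa. The intron shares with IL6 (70.0%) and TGFb (60.0%) lay near those of all probes (68.4% and 56.3%), on the arrays where more control spots were also called. In the other clusters, introns measured with PBS and with IL6 were 4 and 9 of 14 for HOXA, 3 and 8 of 14 for HOXB and 1 and 4 of 11 for HOXC.

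**Figure D1:**
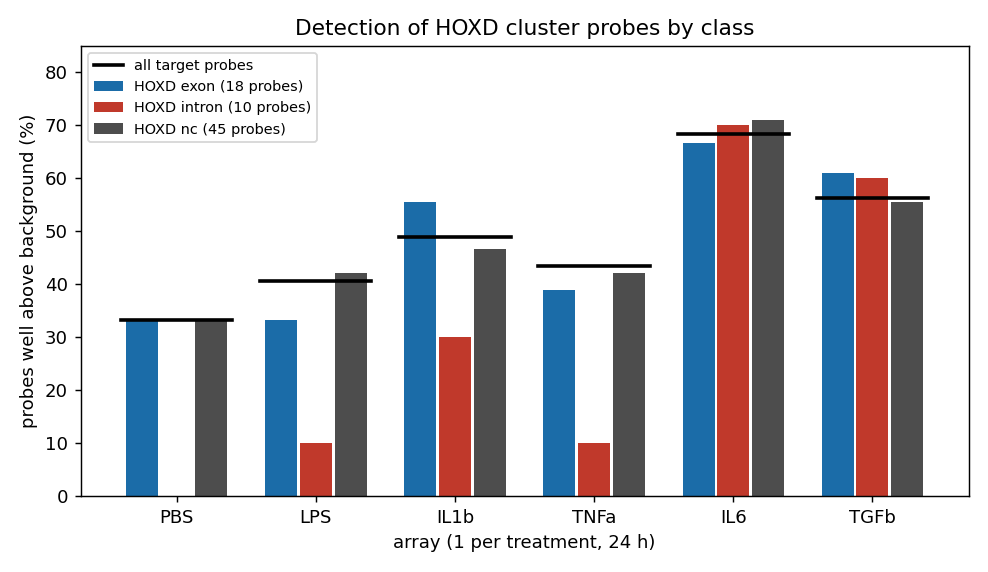
Share of HOXD exon, intron and nc probes well above background on each array (bars, percent), with the share over all target probes as a black line. With PBS, exons and nc probes stand at 33.3% and introns at 0, while with IL6 all 3 classes lie between 66.7% and 71.1%.

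Over the 6 arrays, 17 HOXD probes (23.3%) were measured on all of them, beside 31.5% of all probes, and 18 on none, 24.7% beside 27.8%. The other 38 were measured on 1 to 5 arrays. Of them, 11 (15.1%, beside 8.67% of all probes) were measured with IL6 and TGFb only, among them the introns of HOXD12, HOXD10, HOXD4 and HOXD1. The 17 were HOXD11 exon 1, HOXD8 exon 1, HOXD3 exon 3, HOXD1 exon 2 and 13 nc probes. Of the 17, 9 lay at 9 or higher with PBS, beside 9645 of all 19077 probes measured on all arrays, a similar share. Among the 9 HOXD probes, 8 were nc probes and 1 was HOXD3 exon 3. The plot of levels along the cluster shows these bright nc probes spread from the HOXD13 end to HOXD3. Probes differ in binding strength, so levels are set side by side here and not ranked.

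**Figure D2:**
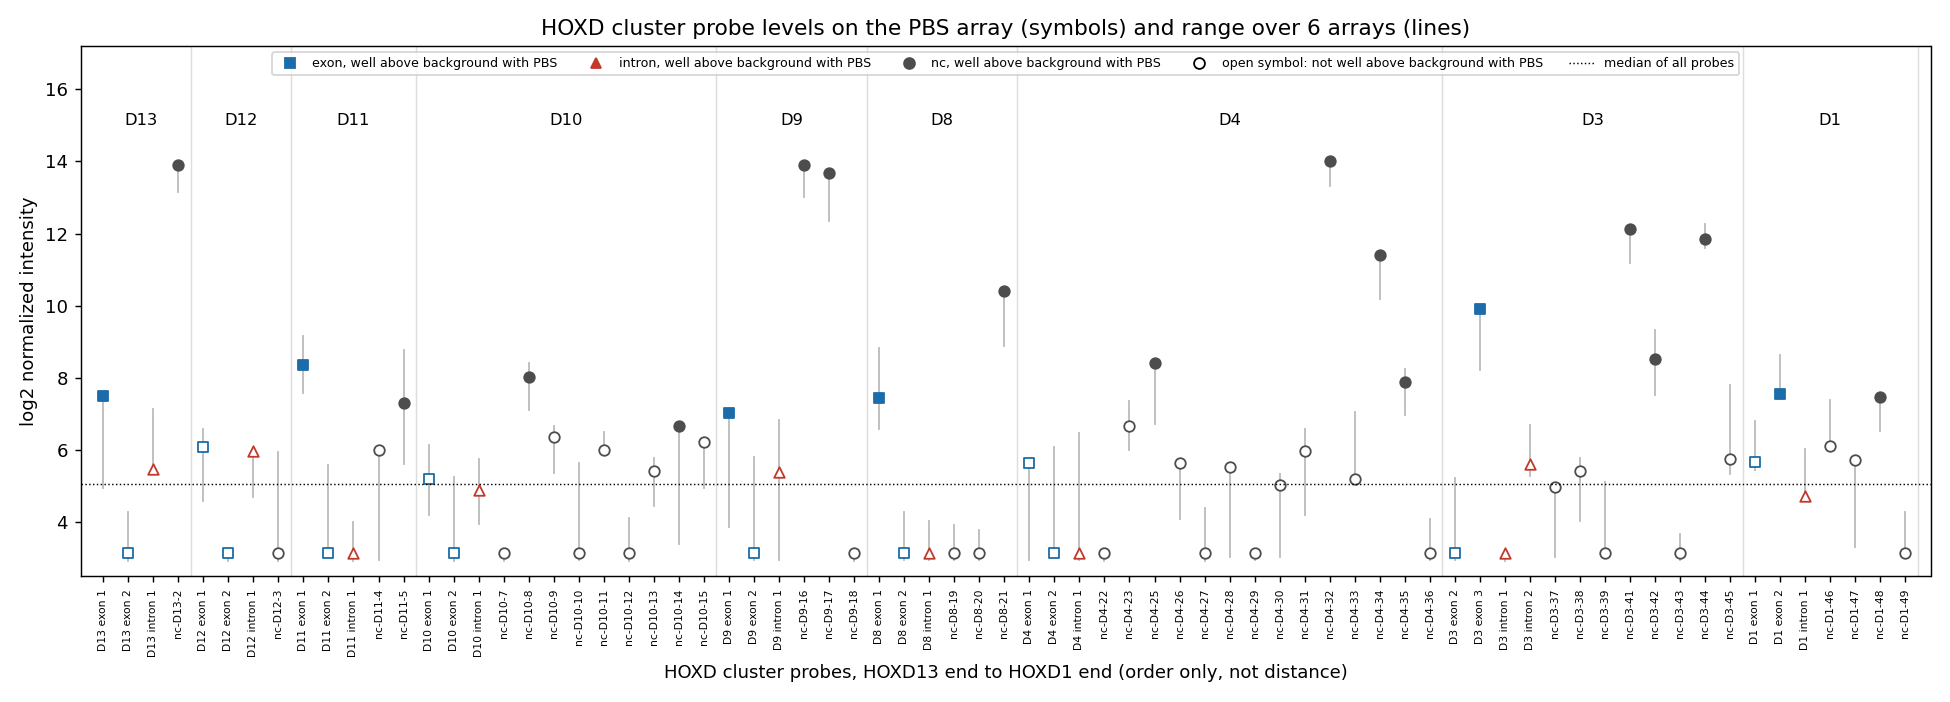
Log2 normalized intensity of the 73 HOXD probes with PBS (squares exons, triangles introns, circles nc; filled where well above background), in order from HOXD13 to HOXD1, with lines spanning the lowest to the highest of 6 arrays. All 10 introns are open, and 8 nc probes and HOXD3 exon 3 lie at 9 or higher.

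Within genes, detection differed between exon probes. In HOXD13, HOXD12, HOXD11, HOXD10, HOXD9 and HOXD8, the exon 1 probe was measured on more arrays than the exon 2 probe, with 4 arrays against 0 for HOXD13, 2 against 0 for HOXD12, 6 against 2 for HOXD11, 3 against 0 for HOXD10, 5 against 2 for HOXD9 and 6 against 0 for HOXD8. At the other end of the cluster the later exon was measured on more. For HOXD4 it was 4 arrays for exon 2 against 0 for exon 1, for HOXD3 6 for exon 3 against 1 for exon 2, and for HOXD1 6 for exon 2 against 5 for exon 1. The same count in HOXA was 3 genes with more arrays for the earlier exon, 2 for the later and 4 equal, in HOXB 4, 3 and 3, and in HOXC 4, 0 and 2. HOXD12 exon 1 was measured with IL6 and TGFb only, and HOXD10 exon 1 with these and IL1b. The exon 2 probes of HOXD11 and HOXD9 were also measured with IL6 and TGFb only. On these arrays more negative control spots were called. Each exon is a single probe, so a difference between exons may be one between probes, and this was not tested.

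At the HOXD13 end, the nc probe was measured on all 6 arrays and the coding probes on 4 and 0. HOXD13, the gene for digit and genital patterning, had an exon 1 level of 7.50 after PBS, 4.96 after LPS, 5.18 after IL1b, 5.04 after TNFa, 6.17 after IL6 and 5.91 after TGFb, and was not well above background with LPS and TNFa. It was highest with PBS and stood below 6.2 on every other array. Its exon 2 was measured on no array. Its intron 1, under the detection call on the PBS array (5.47), was measured at 6.30 after LPS, 6.08 after IL1b, 5.96 after TNFa, 5.89 after IL6 and 7.15 after TGFb, where it was highest. By contrast nc-HOXD13-2 lay at 13.89 after PBS, 13.21 after LPS, 13.15 after IL1b, 13.16 after TNFa, 13.14 after IL6 and 13.31 after TGFb. PBS lay highest, and the treated arrays were close together. With all probes' 75th percentile as the scale they were less so, with differences from PBS of -0.52 for LPS and -1.34 for IL6. HOXD12 was measured with IL6 and TGFb only, by exon 1 (6.21 and 6.57) and intron 1 (5.50 and 5.33), and nc-HOXD12-3 with LPS alone (5.96).

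HOXD11, a gene of forearm and kidney development, was measured by exon 1 on every array. Its exon 1 lay at 8.36 after PBS, 7.69 after LPS, 7.57 after IL1b, 7.57 after TNFa, 9.16 after IL6 and 9.07 after TGFb. The IL6 and TGFb arrays were thus highest, PBS lay between, and the other 3 were lowest. The neighbouring nc-HOXD11-5 was likewise above PBS with IL6 and TGFb and below it with the other 3, though in another order within them, at 7.31 after PBS, 5.61 after LPS (not well above background), 6.27 after IL1b, 6.59 after TNFa, 8.37 after IL6 and 8.77 after TGFb. Its differences from PBS were -1.04 after IL1b, 1.05 (2.07-fold) with IL6 and 1.45 (2.73-fold) with TGFb, and the IL6 difference was 0.96 both under cyclic loess and with all probes' 75th percentile as the scale. HOXD11 exon 2 was measured with IL6 (5.58) and TGFb (5.10) only, and nc-HOXD11-4 and the intron on no array.

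The HOXD10 locus held 9 nc probes, of which 2 were measured after PBS, 3 after LPS, 4 after IL1b, 2 after TNFa, 6 after IL6 and 5 after TGFb. HOXD10, known for restraining migration in breast cells, was measured by exon 1 with IL1b (6.15), IL6 (5.41) and TGFb (4.52), and by its intron with IL6 (5.75) and TGFb (5.71). The only probe of the locus measured on all arrays, nc-HOXD10-8, lay at 8.02 after PBS, 7.35 after LPS, 7.11 after IL1b, 7.22 after TNFa, 8.42 after IL6 and 8.29 after TGFb. As for HOXD11 exon 1, IL6 and TGFb lay above PBS and the other 3 below. IL6 and TGFb instead lay lowest for nc-HOXD10-14, at 6.67 after PBS, 5.96 after LPS, 5.81 after IL1b, 5.58 after TNFa, 3.63 after IL6 and 3.39 after TGFb. It was not well above background with TNFa and TGFb, and its IL6 value, like that of HOXD9 exon 1, counted as measured at a level below the lowest measured value of every other array (4.48 to 5.94). Of the other nc probes, nc-HOXD10-11 lay at 6.01 after PBS (not well above background), 6.08 after LPS, 6.18 after IL1b, 6.18 after TNFa, 6.50 after IL6 and 6.23 after TGFb. Both nc-HOXD10-13 (5.78 and 5.35) and nc-HOXD10-15 (6.25 and 5.95) were measured with IL6 and TGFb only, nc-HOXD10-9 also with IL1b, and 3 on no array.

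At HOXD9, a gene of limb and trunk patterning, nc and exon probes again differed in detection. HOXD9 exon 1 lay at 7.03 after PBS, 6.44 after LPS, 6.41 after IL1b, 6.57 after TNFa, 4.13 after IL6 and 3.86 after TGFb, where it was not well above background. PBS was highest and IL6 and TGFb lowest. Exon 2 was measured with IL6 (5.02) and TGFb (5.80) only, while the intron was measured with IL1b alone (6.83). No direction can be read from exon 2, whose IL6 level lay below the lowest measured value of the LPS (5.94), IL1b (5.17) and TNFa (5.54) arrays. Both nc-HOXD9-16 and nc-HOXD9-17 were bright on all arrays. The first lay at 13.91 after PBS, 13.18 after LPS, 13.00 after IL1b, 13.29 after TNFa, 13.40 after IL6 and 13.85 after TGFb, and the second at 13.67, 12.75, 12.73, 12.68, 12.36 and 12.70 in the same order. For the first, the TGFb difference from PBS was -0.06, but -0.80 with all probes' 75th percentile as the scale. The second lay below PBS on all 5 treated arrays under every scaling, past 2-fold with IL6. The third, nc-HOXD9-18, was measured on no array.

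At HOXD8, the exon and the nc probe differed in opposite directions with IL6 and TGFb. HOXD8 exon 1 lay at 7.44 after PBS, 7.40 after LPS, 6.58 after IL1b, 7.23 after TNFa, 8.84 after IL6 and 7.99 after TGFb. It was highest with IL6, 2.65-fold above PBS, and 0.55 above PBS with TGFb. The neighbouring nc-HOXD8-21 lay at 10.41 after PBS, 10.12 after LPS, 9.96 after IL1b, 10.10 after TNFa, 9.04 after IL6 and 8.89 after TGFb. IL6 was 2.59-fold and TGFb 2.89-fold below PBS, and both lay under the other 4 arrays. These directions held under each of the 4 other scalings. HOXD8 exon 2 and nc-HOXD8-20 were measured on no array, and the intron and nc-HOXD8-19 with IL6 alone.

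HOXD4, whose control region responds to retinoic acid, had the most nc probes of the cluster (14), of which 4 were measured on all arrays and 4 on none. The coding probes were dim. Exon 2 was not well above background with PBS (3.14, the lowest value of that array) or LPS (5.57) and was measured with IL1b (5.28), TNFa (6.08), IL6 (4.91) and TGFb (4.99), and exon 1 on no array. The intron was measured with IL6 (5.04) and TGFb (6.47) only. Of the nc probes, nc-HOXD4-32 lay at 14.00 after PBS, 13.33 after LPS, 13.33 after IL1b, 13.48 after TNFa, 14.01 after IL6 and 13.91 after TGFb. PBS, IL6 and TGFb were close and the other 3 lay lower under quantile scaling. With all probes' 75th percentile as the scale all 5 lay below PBS, with differences of -0.62 for IL6, -0.85 for TGFb and -0.52 for LPS. The probe nc-HOXD4-34 lay at 11.40 after PBS, 10.38 after LPS, 10.38 after IL1b, 10.18 after TNFa, 10.23 after IL6 and 11.14 after TGFb. It lay past 2-fold below PBS with 4 stimuli, and TGFb lay 0.26 below. With IL1b and IL6 it was 2.03-fold and 2.25-fold below PBS. With all probes' 75th percentile as the scale, LPS (-0.90) and IL1b (-0.96) were within 2-fold and TGFb lay at -0.85. Against the median of the other 5 arrays LPS lay at 0.0015, and PBS and TGFb were the highest arrays. The probe nc-HOXD4-25 lay at 8.40 after PBS, 7.48 after LPS, 7.67 after IL1b, 7.44 after TNFa, 6.71 after IL6 and 6.71 after TGFb, 3.22-fold below PBS on each of the last 2. The fourth, nc-HOXD4-35, lay at 7.89, 7.12, 7.14, 6.98, 8.26 and 7.91 in that order, with IL6 highest. Of the dimmer ones, nc-HOXD4-23 lay at 6.67 after PBS (not well above background), 5.99 after LPS, 6.29 after IL1b, 6.07 after TNFa, 7.35 after IL6 and 6.99 after TGFb. The probe nc-HOXD4-33 was measured with LPS (6.04), IL1b (5.56), IL6 (6.41) and TGFb (7.05), and nc-HOXD4-26 with TNFa (5.68) and IL6 (4.08). With IL6 alone, nc-HOXD4-30 (4.61), nc-HOXD4-31 (6.58) and nc-HOXD4-36 (3.90) were measured.

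HOXD3, a regulator of cell adhesion and of angiogenesis, had 1 exon probe that was measured on every array. HOXD3 exon 3 lay at 9.91 after PBS, 9.43 after LPS, 9.53 after IL1b, 9.16 after TNFa, 8.43 after IL6 and 8.23 after TGFb. IL6 was 2.79-fold and TGFb 3.20-fold below PBS, and both lay under each of the other 4 arrays, also under the 4 other scalings. Exon 2 was measured with IL1b alone (5.22), and intron 2 with IL1b (5.28), IL6 (5.68) and TGFb (6.69). The nc probes of the locus split. The probe nc-HOXD3-42 lay at 8.51 after PBS, 7.72 after LPS, 7.53 after IL1b, 7.62 after TNFa, 9.34 after IL6 and 9.07 after TGFb, opposite to exon 3 on the last 2 arrays. The bright nc-HOXD3-44 lay at 11.85 after PBS, 11.61 after LPS, 11.86 after IL1b, 12.05 after TNFa, 11.80 after IL6 and 12.27 after TGFb, at most 0.42 from PBS under quantile scaling. With all probes' 75th percentile as the scale, its IL6 difference was -0.61. The bright nc-HOXD3-41 lay at 12.13, 11.19, 11.23, 11.27, 11.26 and 12.06, so that PBS and TGFb were high. With all probes' 75th percentile as the scale, its TGFb difference from PBS was -0.76 in place of -0.07, next to -0.83 for LPS. The probe nc-HOXD3-45, not well above background with PBS (5.75) and LPS (5.34), was measured at 5.59 after IL1b, 6.01 after TNFa, 7.81 after IL6 and 7.55 after TGFb. With IL6 and TGFb only, nc-HOXD3-38 (5.78 and 5.31) and nc-HOXD3-39 (5.11 and 4.52) were measured, with IL6 alone nc-HOXD3-43 (3.66), and on no array nc-HOXD3-37 and intron 1.

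HOXD1 is the gene at the anterior end of the cluster. Of its 7 probes, 3 were measured with LPS, IL1b and TNFa and read brighter there than with PBS. The same held for HOXD13 intron 1 and nc-HOXD10-11. For nc-HOXD10-11, the LPS difference of 0.07 turned to -0.14 when scaled to the 75th percentile of probes measured on all arrays. Only HOXD1 exon 2 among them was measured with PBS. The 1st percentile of measured values was 6.71 with PBS, 5.98 after LPS, 5.21 after IL1b and 5.71 after TNFa. HOXD13 intron 1 and nc-HOXD10-11 lay below 6.71 on those 3 arrays, as did HOXD1 exon 1 with LPS and IL1b. No direction can be read from these values. HOXD1 exon 2 lay at 7.54 after PBS, 8.63 after LPS, 8.44 after IL1b, 8.42 after TNFa, 7.65 after IL6 and 8.28 after TGFb. PBS and IL6 were low and the other 4 arrays high. The differences from PBS were 1.10 (2.14-fold) with LPS, 0.90 after IL1b, 0.89 after TNFa, 0.74 after TGFb and 0.11 after IL6. They kept their sign under the 4 other scalings, with ranges of 1.01 to 1.18 for LPS and 0.10 to 0.58 for IL6. HOXD1 exon 1, not well above background with PBS (5.66), lay at 6.10 after LPS, 6.49 after IL1b, 6.81 after TNFa, 5.45 after IL6 and 6.41 after TGFb. Only its TNFa value lay above the 1st percentile of measured PBS values (6.71). The IL6 difference of exon 1 from PBS was -0.21, and turned to 0.45 under scaling to the 75th percentile of probes measured on all arrays. The neighbouring nc-HOXD1-46 was likewise not well above background with PBS (6.12), and lay at 7.40 after LPS, 7.24 after IL1b, 7.13 after TNFa, 6.32 after IL6 and 6.45 after TGFb. Under quantile scaling it read 2.42-fold higher with LPS, 2.17-fold with IL1b and 2.02-fold with TNFa, each against its own PBS reading. That reading lay above the lowest measured value of the PBS array (4.54) but under the 1st percentile of its measured values (6.71). The folds are therefore not lower bounds. Over the 5 scalings the difference was 1.11 to 1.30 for LPS, 1.02 to 1.12 for IL1b and 0.95 to 1.01 for TNFa.

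Other probes of the HOXD1 locus differed from these in direction or in detection. The probe nc-HOXD1-48 lay at 7.47 after PBS, 6.70 after LPS, 6.92 after IL1b, 6.99 after TNFa, 7.13 after IL6 and 6.52 after TGFb, with PBS highest. Its IL6 difference of -0.34 turned to 0.18 when scaled to the 75th percentile of probes measured on all arrays. HOXD1 intron 1 was measured with IL6 (6.04) and TGFb (5.78) only, and nc-HOXD1-47 with TGFb alone (4.84) and nc-HOXD1-49 with IL6 alone (3.79). HOXD1 intron 1 and nc-HOXD1-49 also read above PBS with LPS, IL1b and TNFa. They were not well above background on any of those arrays, so no direction is read from them. The 2 exons and nc-HOXD1-46 were chosen for joint description after their values were seen. Of all probes, 6.31% were measured on all 5 treated arrays and not with PBS, and 5 of the 73 HOXD probes (6.85%) were, which is near that share. They were HOXD1 exon 1, nc-HOXD1-46, HOXD13 intron 1, nc-HOXD10-11 and nc-HOXD4-23.

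**Figure D3:**
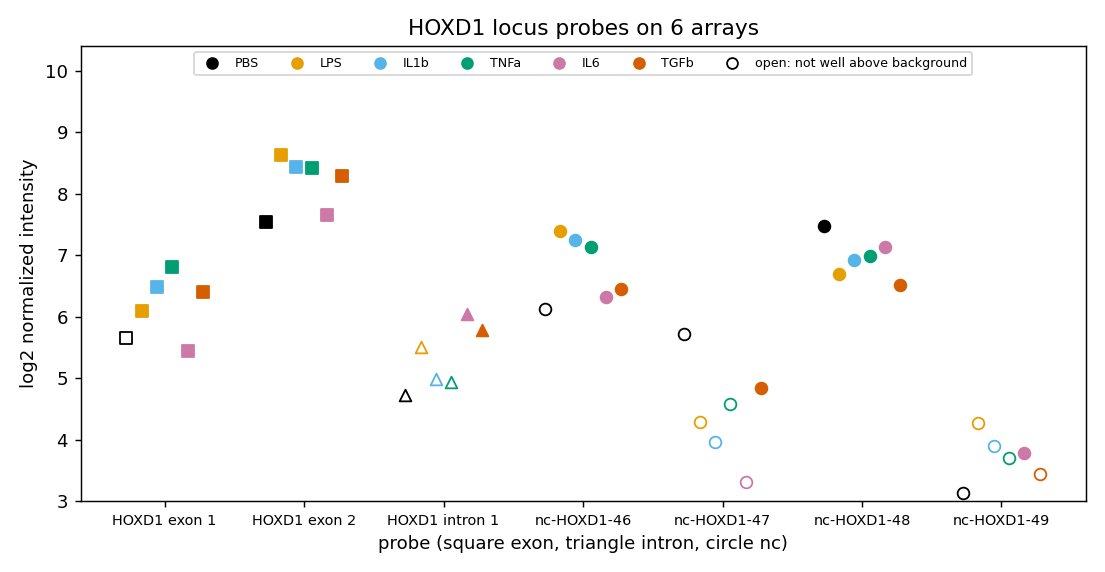
Log2 normalized intensity of the 7 HOXD1 locus probes on each of the 6 arrays (colours), open where the spot was not well above background. Exon 2 lies higher with LPS, IL1b and TNFa than with PBS. Exon 1 and nc-HOXD1-46 do as well, but were not well above background with PBS, and no direction is read from exon 1 with LPS and IL1b. The probe nc-HOXD1-48 is highest with PBS (its IL6 difference of -0.34 turned to 0.18 under another scaling).

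Each stimulus was then compared with PBS over the HOXD probes measured on both arrays, counting log2 differences of at least 1 (2-fold). In all, 21 differences in 11 probes passed. Many probes could not be compared in this way, being measured on 1 array of the pair. HOXD probes measured after the stimulus and not after PBS numbered 7 for LPS, 13 for IL1b, 8 for TNFa, 30 for IL6 and 23 for TGFb, or 9.59%, 17.8%, 11.0%, 41.1% and 31.5% of the 73, beside 8.44%, 16.3%, 11.1%, 35.4% and 24.1% of all probes. Those measured after PBS and not after the stimulus numbered 2, 0, 2, 0 and 2, which is 2.74% of the 73 for LPS, TNFa and TGFb, beside 0.911%, 0.394%, 0.771%, 0.2% and 0.972% of all probes in the order of the stimuli. With at most 2 probes each, nothing is read from these last shares. With LPS, 1 of 19 was higher (HOXD1 exon 2) and 1 lower (nc-HOXD4-34), beside 6.87% and 5.22% of all probes. With IL1b, 0 of 21 were higher and 3 lower (HOXD13 exon 1, nc-HOXD11-5 and nc-HOXD4-34), beside 9.43% and 9.62%. The IL1b level of HOXD13 exon 1 (5.18) lay close to the lowest measured value of that array (5.17). Against the other 5 arrays' median, this probe's IL1b difference was -0.73 in place of -2.32. With TNFa, 0 of 19 were higher and 1 lower (nc-HOXD4-34), beside 9.06% and 8.92%. Of those measured, 5.26% were higher and 5.26% lower with LPS, 14.3% lower with IL1b and 5.26% lower with TNFa. Scaled to the 75th percentile of probes measured on all arrays, the lower counts were 3, 9 and 3, and scaled to that of all probes 0, 2 and 2, with higher counts of 1, 0 and 0 in both. The shares of all probes under these scalings were not counted.

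With IL6, 2 of 21 were higher (HOXD8 exon 1 and nc-HOXD11-5) and 8 lower, 38.1% of those measured, beside 9.64% and 20.4% of all probes. The lower ones were HOXD13 exon 1, HOXD9 exon 1, HOXD3 exon 3, nc-HOXD10-14, nc-HOXD9-17, nc-HOXD8-21, nc-HOXD4-25 and nc-HOXD4-34. With TGFb, 1 of 19 was higher (nc-HOXD11-5) and 4 lower (HOXD13 exon 1, HOXD3 exon 3, nc-HOXD8-21 and nc-HOXD4-25), beside 10.0% and 18.9%. The IL6 and TGFb comparisons share the PBS array. Scaled to the 75th percentile of probes measured on all arrays, 4 were higher and 7 lower with IL6, and 4 and 4 with TGFb, and scaled to that of all probes 1 and 11 with IL6, and 1 and 6 with TGFb. Here too the shares of all probes were not counted. Under the first of these scalings HOXD13 exon 1 lay at -0.78 with IL6 and -0.88 with TGFb and was not called, and nc-HOXD9-17 was called with TGFb (-1.15). Set against the other 5 arrays' median, HOXD13 exon 1 was higher by 0.99 after IL6 and 0.73 after TGFb, so that its difference from PBS turned sign on that footing.

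**Figure D4:**
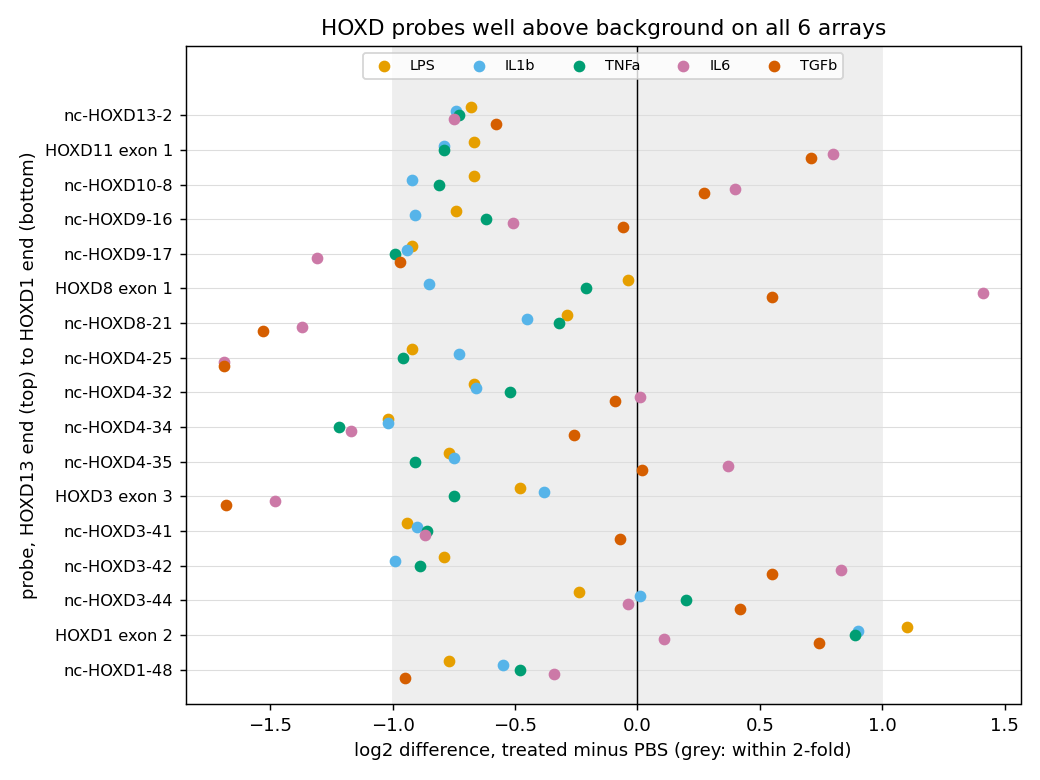
Log2 differences from PBS for each stimulus (colours) in the 17 HOXD probes well above background on all 6 arrays, ordered from HOXD13 to HOXD1, with the grey band marking less than 2-fold. HOXD1 exon 2 is the only one past 2-fold above PBS with LPS, and nc-HOXD8-21, nc-HOXD4-25 and HOXD3 exon 3 lie past 2-fold below PBS with both IL6 and TGFb.

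Of the 17 HOXD probes measured on all arrays, 10 (58.8%, beside 52.0% of all such probes) stayed within 2-fold of PBS with every stimulus. None lay past 2-fold on the same side with all 5, beside 1.7% higher and 1.7% lower of all such probes. With both IL6 and TGFb, 0 were past 2-fold higher, beside 5.95%, and 3 lower (17.6%, beside 12.9%), namely nc-HOXD4-25, nc-HOXD8-21 and HOXD3 exon 3.

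Small differences with LPS, IL1b and TNFa nearly all ran one way. Of the 17 HOXD probes measured on all arrays, 15 lay below PBS with each of these 3 stimuli, beside 50.7% of all such probes. The exceptions were HOXD1 exon 2 and nc-HOXD3-44. The same held in the other clusters, with 24 of 26 probes in HOXA, 27 of 32 in HOXB and 33 of 37 in HOXC. The median HOXD difference, over probes measured on both arrays, was -0.68 after LPS, -0.79 after IL1b, -0.73 after TNFa, -0.51 after IL6 and -0.07 after TGFb, beside -0.15, -0.24, -0.21, -0.11 and -0.06 over all probes. With all probes' 75th percentile as the scale, the median of all 60596 probes lay between -0.72 and -0.65. Over the probes measured on all arrays, the HOXD median with LPS, IL1b and TNFa lay between -0.87 and -0.66 under the 5 scalings, and that of all such probes between -0.32 and -0.09. The HOXD median with IL6 ranged from -0.62 to -0.14 (all such probes -0.38 to 0.10) and with TGFb from -0.80 to -0.02 (-0.39 to 0.17), so that the size of the TGFb shift depended on the scaling. Medians with LPS were -0.70 for HOXA, -0.64 for HOXB and -0.48 for HOXC. The shift was thus not seen in HOXD alone, and all these values share 1 PBS array.

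IL6 and TGFb were therefore also set against the median of the LPS, IL1b and TNFa arrays, a footing without PBS that was chosen after the values were seen. On it, 3 of the 17 probes lay past 2-fold higher with both (17.6%, beside 11.4% of all probes), namely HOXD11 exon 1 (1.59 after IL6 and 1.49 after TGFb), nc-HOXD3-42 (1.72 and 1.44) and nc-HOXD10-8 (1.20 and 1.08). HOXD8 exon 1 (1.61 and 0.76) and nc-HOXD4-35 (1.14 and 0.80) passed with IL6. Only nc-HOXD8-21 (-1.06 and -1.21) was past 2-fold lower with both, beside 6.07% of all probes, and HOXD3 exon 3 lay at the threshold with IL6 and at -1.20 after TGFb. HOXD1 exon 2 lay at -0.79 after IL6 and -0.16 after TGFb. In HOXA, 9 of 26 were higher and 0 lower, in HOXB 2 and 3 of 32, and in HOXC 8 and 9 of 37.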

How the data were processed

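Total RNA of 6 samples of MDA-MB-231 cells was hybridized to 1 array each. The deposited intensity values are, per the file headers, scanner signals after background correction, and the deposited 0 or 1 calls mark outlier spots and spots well above background. The labels describe a NimbleGen-format array, whereas the file columns are those of Agilent software, and the files were followed. The authors also deposited a table of log2 intensities, for which RMA (version not given) is named in the submitters' processing notes. Its columns (median 5.07 on each array) differed from the quantile-normalized log2 intensities by a median of at most 0.000624 per array over measured probes, and by up to 1.2 on the PBS array.

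Control and outlier spots were removed, spots sharing a probe were averaged, and log2 intensities of 60596 of 60639 target probes quantile normalized (limma 3.58.1, R 4.3.3). No spot was saturated. RefSeq IDs of all 9 HOXD genes matched the GRCh38.p14 gene table, and 2 other exon or intron IDs had no match. Probes were called at a log2 difference of at least 1 when well above background on both arrays, a rule checked on simulated data. The simulation had the noise of the closest array pair (0.23), changes above the threshold and the PBS detection calls on every array. Between PBS and a treated array the robust SD was 0.45 to 0.90, so the simulation gives no error rate for the calls here. With 1 array per group, the number of arrays limits the precision. Values on all arrays are given for HOXD probes measured on all 6 or called, and the others by single values or counts. The members and lists were chosen with earlier results of these data known. Alternatives were other scalings, thresholds, detection rules, controls and outlier handling.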

Additional observations from a re-analysis of the deposited data

How the results depend on the processing

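Counts of HOXD probes past 2-fold are given as higher and lower than PBS. Counts not listed equalled the reported ones or lay within a factor of 1.5 of them. Shares of all probes were not counted under these alternatives, so nothing particular to HOXD is read from the counts. With the threshold at 1.5-fold, 13 were lower with LPS, 16 lower and 1 higher with IL1b, 12 lower and 1 higher with TNFa, 4 higher with IL6 and 3 higher with TGFb. At 3-fold, 0 were higher with LPS, IL6 or TGFb, 0 lower with LPS or TNFa, 1 lower with IL1b and 3 lower with IL6. Under cyclic loess, 6 were lower with IL1b and 1 higher with IL6. Scaled to the 75th percentile of all probes, 0 were lower with LPS, 2 lower with TNFa and 1 higher with IL6, and scaled to that of the probes measured on all 6, 3 were lower with LPS, 9 with IL1b and 3 with TNFa, and 4 were higher with IL6 and 4 with TGFb. With a floor at the array median in place of the detection call, the higher and lower counts were 4 and 9 with LPS, 5 and 11 with IL1b, 6 and 9 with TNFa, 7 and 14 with IL6, and 9 and 12 with TGFb. Requiring detection on all 6 arrays left 1 lower with IL1b, 1 higher and 5 lower with IL6, and 0 higher with TGFb, since fewer probes entered. Against the median of the other 5 arrays, 0 were higher and 0 lower with LPS, 1 lower with IL1b, 1 higher and 0 lower with TNFa, 8 and 3 with IL6, and 6 and 2 with TGFb. Against the median of LPS, IL1b and TNFa, an alternative chosen after seeing the data, 8 were higher and 4 lower with IL6, and 7 and 2 with TGFb. Apart from the changes that fewer probes bring, the cause was not tested. The deposited log2 table and the keeping of outlier spots gave the same counts as the reported setting.

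Of the 21 called differences, 126 values under alternatives were computed. Of these, 86 lay within 0.23 of the reported value (the robust SD of the closest pair of arrays), 37 differed by more but kept their sign, and 3 reversed. The 37 included both smaller and larger differences. Against the median of the other 5 arrays, nc-HOXD4-34 with IL1b lay at -0.0015 in place of -1.02. On the same footing nc-HOXD11-5 with TGFb lay at 2.17 in place of 1.45. The reversed values, all against the median of the other 5 arrays, were 0.0015 for nc-HOXD4-34 with LPS, 0.99 for HOXD13 exon 1 with IL6 and 0.73 for HOXD13 exon 1 with TGFb. No paired analysis was possible because each group has 1 array, and for the same reason no replicate could be left out. Signal over background limits the dim probes: 26 of the 73 stood at the lowest value of the PBS array (3.14), where values have no order.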
